A study of Mus musculus with 36 samples.

Results

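Hyaluronan is a long, unsulphated sugar polymer of the extracellular matrix that is abundant in the stroma of pancreatic tumours, where fibroblasts are a main source of it. Hyaluronan synthases in the plasma membrane build the chain from UDP-sugars and extrude it, hyaluronidases cut it, CD44 and RHAMM bind it at the cell, and versican and TSG-6 tie it into the matrix. Expression of 9 genes of this system was followed in mouse pancreatic fibroblasts: the synthases Has1, Has2 and Has3, the hyaluronidases Hyal1 and Hyal2, the receptors Cd44 and Hmmr, and the binding proteins Vcan and Tnfaip6. They were taken by symbol from the 39017 genes of the count table, and all 9 were found and passed the filter on low counts.

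The fibroblasts were of the C57BL/6 strain and were grown alone (mono-culture) or in direct contact with a tumour line for 48 h. The tumour partners were 7 sub-clones, named E, H, K, M, N, T and V, and KPC1, whose name is not explained by the labels. Tumour cells carried GFP and were removed by flow sorting, and RNA was taken from the fibroblasts. The mono-culture libraries carry the same protocol text, so whether they too were sorted is not told. The question was whether, and for which partner, contact with tumour cells changed fibroblast expression. No age, genotype or passage of the fibroblasts is given, and each clonal partner is a single clone. There were 36 polyadenylated RNA libraries, 4 per culture, with between 12532122 and 21985538 counts each. The labels do not say that replicates were separate cultures, so p-values measure the spread between these libraries, which may be technical. All 8 co-cultures were compared with the same 4 mono-culture libraries, so their differences from mono-culture are not independent of each other.

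The sorted cells were checked against marker genes. The summed level of 10 fibroblast markers was 21240 to 23093 CPM in mono-culture (counts scaled to the library total, with edgeR's TMM factors) and moved with the partner. Group means were 26774 CPM with M, 26153 with K, 23598 with N and 23285 with E, and 17172 with T, 17046 with H, 16692 with V and 14849 with KPC1. Over the clone mean 3 of the 10 rose (Pdgfrb, Thy1 and Fap), 2 fell (Pdgfra, log2 -0.70, and Lum, -1.22) and 5 did not pass. With T and with KPC1 4 rose and 6 fell. Of all genes tested, 49.2% passed over the clone mean, 49.8% with T and 59% with KPC1. The summed level of 11 epithelial genes was 2.74 to 4.18 CPM in mono-culture and 20.5 to 804 CPM in co-culture libraries, with Krt18 (at most 429 CPM), Krt8 (227), Krt19 (131) and Cdh1 (44.1) the highest. Epcam, by contrast, had at most 9 counts in any library, Cldn4 at most 2 and Esrp1 at most 3. Endothelial markers summed to at most 6.39 CPM and immune markers to at most 16.1 CPM, and Cd3e was at 0 in every library. The epithelial and fibroblast sums thus moved with co-culture, and their part in the results was not tested. In bulk RNA, a smaller share of expressing cells and less RNA per cell cannot be told apart.

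Has2, Cd44, Tnfaip6 and Vcan were the members whose expression rose in the mean of the 7 clonal co-cultures. Upstream sequence is shown for those held in the RefSeq promoter set for GRCm38.p6, the build of the files; no entry was held for Has2 or Has3. Each line runs 5′ to 3′ on the gene's strand and ends before the RefSeq start and the GENCODE gene start. Capitals mark matches on either strand to the SP1 box GGGCGG, to the AP-1 element TGANTCA or to the STAT element TTCNNNGAA. The windows are chr2:102901666-102901915, minus strand, for Cd44, chr13:89742513-89742762, minus strand, for Vcan, and chr2:52037863-52038008, plus strand, for Tnfaip6.
Cd44: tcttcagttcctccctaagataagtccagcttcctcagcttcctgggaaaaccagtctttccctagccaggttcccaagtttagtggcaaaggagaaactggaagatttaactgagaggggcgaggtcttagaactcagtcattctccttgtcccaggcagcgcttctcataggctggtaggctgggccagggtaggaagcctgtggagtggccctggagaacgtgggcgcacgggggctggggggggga
Vcan: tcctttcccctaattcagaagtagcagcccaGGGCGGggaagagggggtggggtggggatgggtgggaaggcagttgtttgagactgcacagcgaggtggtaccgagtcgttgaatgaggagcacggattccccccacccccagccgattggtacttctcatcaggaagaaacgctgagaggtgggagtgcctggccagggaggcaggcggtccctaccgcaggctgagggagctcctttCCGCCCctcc
Tnfaip6: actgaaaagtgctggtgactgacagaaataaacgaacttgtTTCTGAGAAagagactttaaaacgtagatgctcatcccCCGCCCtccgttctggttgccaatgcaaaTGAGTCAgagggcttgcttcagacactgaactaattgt

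In all, 8 motifs were searched on both strands of the 250 bases before each RefSeq start. GGGCGG was in the Vcan window at 2 places and in the Tnfaip6 window at 1, against 32.7% of 32851 windows of the same length. TGANTCA was matched in the Tnfaip6 window 142 to 136 bases before the start, and 6.75% of windows held it. TTCNNNGAA was matched there 209 to 201 bases before the start, and 7.02% of windows held it. Tnfaip6 also held GGAATG, a TEAD element in 12.6% of windows, 8 to 3 bases before the start and so outside the printed stretch. The TATA box TATAAA (12.4% of windows), the cyclic AMP response element TGACGTCA (1.55%), the NF-kB element (1.41%) and the E-box CACGTG (6.02%) had no match in these windows, and the Cd44 window had no match to any motif searched. TGACGTCA was matched in the Has1 window 83 to 76 bases before the start. A match is a description of the letters in a window.

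The mean of the 7 clonal co-cultures was compared with mono-culture in edgeR's quasi-likelihood test over 14439 genes. Of the 9 members, 4 passed an adjusted p of 0.05, against 49.2% of all genes tested. All 4 were higher, where 24.3% of all genes were higher and 24.9% lower. The median log2 fold change of the members was 0.48, and that of all genes 0.01. As a share of the 9 members, 44.4%, the count is near the background.

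Has2 (ENSMUSG00000022367, GRCm38 chr15:56665627-56694539, minus strand) encodes the synthase that makes most hyaluronan in mesenchymal cells. Its levels in mono-culture were 14.2, 12.5, 10.9 and 15.7 CPM (mean 13.3 ± 2.08, SD, n = 4). The 4 libraries with clone N had 51.6, 54.8, 52.8 and 61.4 CPM (55.1 ± 4.36, SD, n = 4), and those with clone M, at the other end, had 18.1, 24.2, 29.97 and 30.7 CPM (25.7 ± 5.87, SD, n = 4). Every one of the 32 co-culture libraries lay above every mono-culture library. The share of all genes separated in this way is not given, so such counts, here and for other members, have no background beside them. The rise averaged 1.55 on the log2 scale over the clones (SE 0.155, adjusted p = 1.6e-09), which is 2.92-fold, and was 4.12-fold with clone N, 3.83-fold with clone V, 3.72-fold with clone E and 1.92-fold with clone M.

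Has2 also differed among the clones (F-test over the 7 clonal co-cultures, adjusted p = 3.4e-06), and the ascending order of means was mono-culture, M, K, T, KPC1, H, E, V and N. Clone K had 30.5 ± 9.11, clone T 31.2 ± 5.01 and clone H 40.1 ± 9.45 CPM (SD, n = 4 each). The group of high partners held clone E at 49.8 ± 2.82 and clone V at 51.2 ± 8.94 CPM, below clone N. Only the step from mono-culture to clone M had no overlap between neighbouring groups. KPC1 co-cultures had 30.4, 27.3, 33.6 and 35.6 CPM (31.7 ± 3.67, SD, n = 4). Their difference from the clonal mean was -0.30 on the log2 scale (95% interval -0.58 to -0.02, adjusted p = 0.079) and did not pass the test, though it did with limma-trend on RPKM values with a pseudocount of 1 (-0.29, adjusted p = 0.048).

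**Figure D1:**
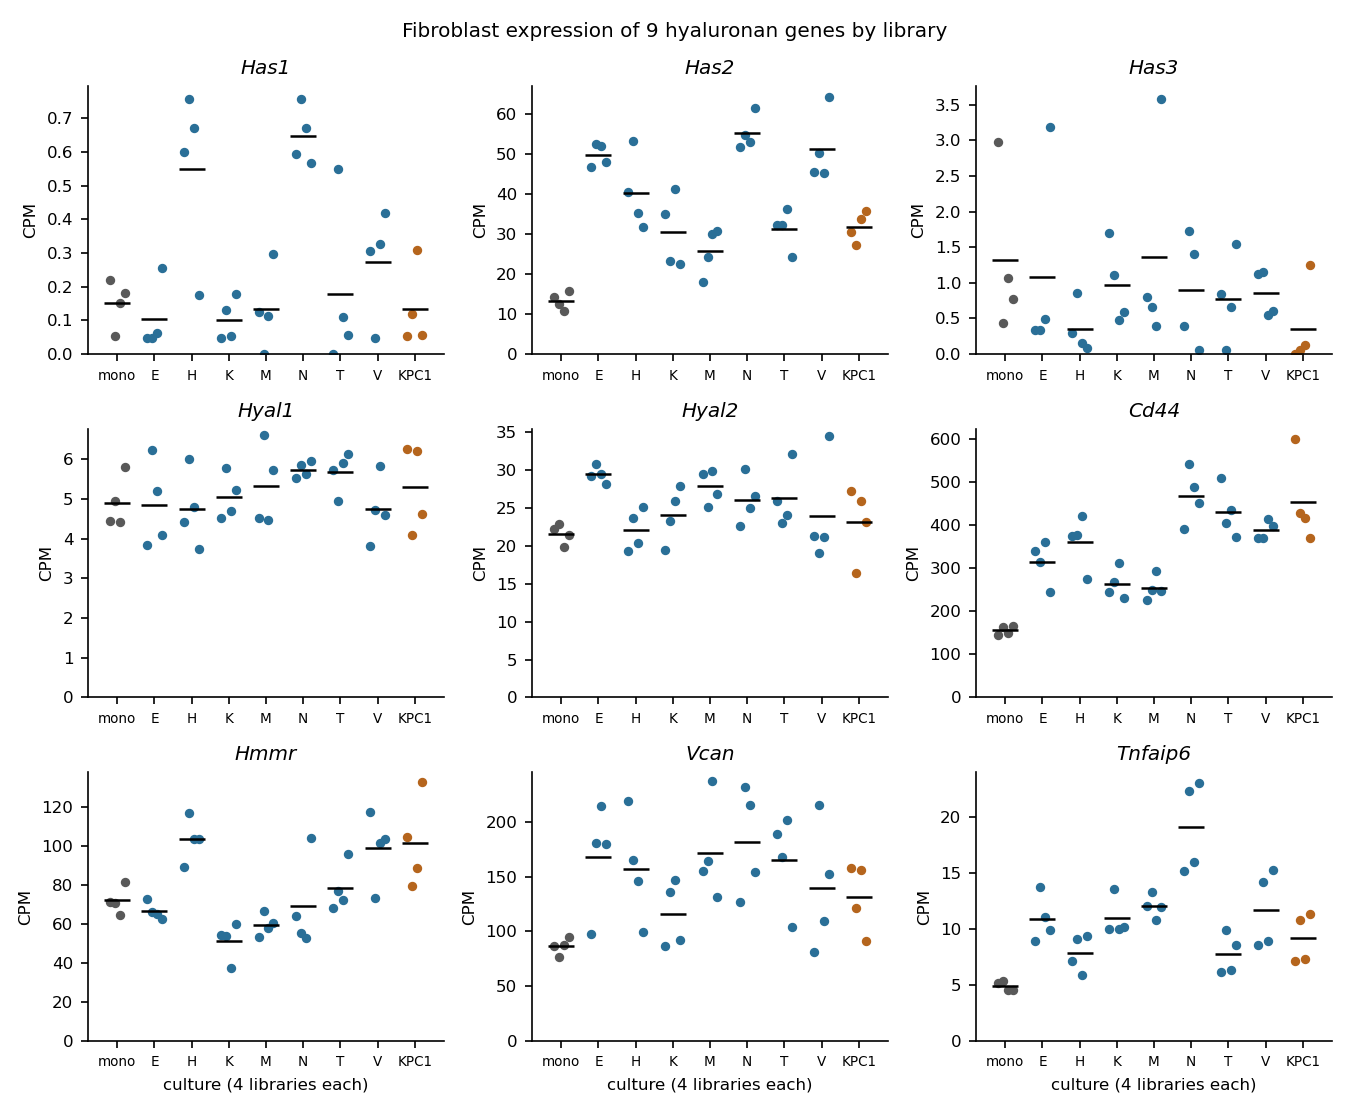
Level of each of the 9 genes in each of the 36 libraries (points, in CPM, axes from 0) by culture, with the mean of 4 libraries as a black line; mono-culture is grey, clonal co-cultures are blue and KPC1 is brown. The co-culture points of Has2, Cd44 and Tnfaip6 sit above all mono-culture points, while those of Hyal1 and Hmmr spread across the mono-culture level. For Hyal2, 24 of the 32 lie above all mono-culture points and 4 below.

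An antisense gene, Has2os (GRCm38 chr15:56689944-56778399, plus strand), overlaps Has2 and shares 182 exonic bases with it. The libraries were strand specific, but whether counting used strand is not given in the sources used here. Has2os had 19 to 84 counts per library, and in all 7.17% of the summed count of Has2.

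Has1 and Has3, which encode the other synthases of the family, were present at very low levels. Per kilobase of transcript (RPKM, which allows genes to be compared), Has2 made up 91.7 ± 5.25% (SD, n = 4) of the summed synthase level in mono-culture. In co-culture its mean share was between 95.6% with clone M and 98.4% with KPC1, so Has2 was the main synthase transcript in all 9 cultures.

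Has1 had 4, 1, 2 and 4 counts in the mono-culture libraries. With clone N it had 12, 14, 10 and 10 counts, all above mono-culture, and with clone H 10, 15, 13 and 4. Summed over 4 libraries and scaled by library size, clone N was 4.19 times mono-culture (95% counting interval 2.14 to 8.97, from 46 against 11 counts). The clone H value was 3.46 times mono-culture (1.75 to 7.45, from 42 counts). Both intervals, and the limits given for a count of 0, take in counting error alone and not the spread between libraries. PCR copies are not separate molecules, so they may be too narrow even for counting error.

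Both Has1 changes passed the test (adjusted p = 0.018 for N and 0.029 for H) and Has1 differed among the clones (F-test adjusted p = 0.0021). Only libraries of N and H, and clone T replicate 2, had at least 10 counts of Has1. It thus passed the filter on low counts mainly through the cultures in which it was then called. These calls are therefore not independent of the filter and are given as a description. Without mono-culture replicate 2 both calls were lost, at adjusted p = 0.065 for N and 0.091 for H. The clone H call was also lost without mono-culture replicate 3 (0.051) and without clone H replicate 1 (0.051), 2 (0.078) or 3 (0.065). Has1 had no read in clone M replicate 2 and clone T replicate 1, which allows up to 0.182 and 0.168 CPM.

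Has3 did not pass the test in any co-culture. Its mono-culture levels were 2.97, 0.44, 1.06 and 0.78 CPM, so 1 library set most of the group's spread. The KPC1 libraries had 0, 0.06, 0.12 and 1.25 CPM, the 0 allowing up to 0.158 CPM, and those of clone H had 0.30, 0.86, 0.15 and 0.09 CPM. Without KPC1 replicate 4 the KPC1 difference was -4.33 on the log2 scale (adjusted p = 0.0063) in place of -1.85 (0.11). Without clone H replicate 2 the clone H difference was -2.87 (0.044) in place of -1.90 (0.10), and fitted with mono-culture alone it was -1.91 (0.046). Between KPC1 and the clones it was -3.69 (0.019) without KPC1 replicate 4, in place of -1.20 (0.26). Has3 shares 352 exonic bases with Chtf8 on the opposite strand, which had at least 1738 counts in every library, and its low counts are uncertain for that reason.

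Of the 2 hyaluronidase genes, Hyal2 was called with 1 partner and Hyal1 with none when all libraries were fitted together. Hyal2, a GPI-anchored enzyme that cuts long hyaluronan at the cell surface, was at 22.3, 22.9, 19.8 and 21.5 CPM in mono-culture. With clone E it was at 29.2, 30.8, 29.6 and 28.2 CPM, with no overlap, and this was its only call in the fit of all 36 libraries (1.36-fold, log2 0.44, SE 0.153, adjusted p = 0.026). That call was lost without mono-culture replicate 1, 3 or 4 or clone E replicate 2 (adjusted p 0.052 to 0.061) and with scaling by library totals alone (0.062). It was also lost with limma-trend on RPKM values with a pseudocount of 1 (0.055) or 0.1 (0.056). Fitted with mono-culture alone, Hyal2 also passed with M (log2 0.38, adjusted p = 0.0043), N (0.28, 0.048) and T (0.29, 0.049). Over the 7 clones the log2 difference was 0.24 (95% interval 0.00 to 0.48, adjusted p = 0.090), with 21 of 28 clonal libraries above and 3 below all mono-culture libraries. Mono-culture had the lowest group mean, 21.6 ± 1.34 CPM, and clone E the highest, 29.5 ± 1.08 CPM (SD, n = 4 each), and all neighbours in the order overlapped.

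Hyal2 did not pass the test among clones (adjusted p = 0.19), except without clone V replicate 4 (0.018). That library had 34.5 CPM where the other 3 of clone V had 19.02 to 21.3. Leaving it out also brought the clone M difference past the threshold, at 0.35 on the log2 scale and adjusted p = 0.048, in place of 0.36 and 0.086.

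Hyal1, the lysosomal enzyme that takes hyaluronan fragments further apart, had group means between 4.74 and 5.75 CPM in the 9 cultures. Its mono-culture mean was 4.91 ± 0.647 CPM (SD, n = 4), its log2 difference over the clones was 0.07 (95% interval -0.20 to 0.34, adjusted p = 0.72), and no comparison passed. Hyal1 (chr9:107576927-107581710) lies beside Hyal2 (chr9:107567945-107572779) on the same strand. It shares 1920 exonic bases with Naa80 and 159 with Hyal3, so its counts depend on how shared reads were assigned.

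Cd44 (ENSMUSG00000005087, GRCm38 chr2:102811141-102901665, minus strand), the main surface receptor for hyaluronan, was the most abundant member per transcript length, at 28.96 ± 1.84 RPKM (SD, n = 4) in mono-culture. In CPM its 4 mono-culture libraries had 145, 162, 148 and 167. With clone N it had 391, 541, 490 and 452 CPM, and with clone M, the lowest co-culture, 226, 249, 295 and 247 CPM. None of the 32 co-culture libraries overlapped the mono-culture range.

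The mean clonal rise of Cd44 was 2.22-fold (log2 1.15, SE 0.117, adjusted p = 2.1e-09), from 1.63-fold with clone M to 3.01-fold with clone N. The clones differed (F-test adjusted p = 3.7e-06), in the ascending order M, K, E, H, V, T, N. Means were 254 ± 29.1 CPM with M, 264 ± 35.9 with K, 315 ± 50.3 with E, 362 ± 62.2 with H, 389 ± 22.1 with V, 431 ± 58.6 with T and 469 ± 63.4 with N (SD, n = 4 each), and of the neighbours in this order only mono-culture and clone M did not overlap. The order differed from that of Has2, where clone T lay below clones H, E and V. KPC1 libraries had 600, 428, 416 and 371 CPM (454 ± 101, SD, n = 4), 1.31-fold the clonal mean (log2 0.39, SE 0.102, adjusted p = 0.0030). This last call rested on KPC1 replicate 1, without which the difference was 0.22 on the log2 scale (adjusted p = 0.11).

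The mean epithelial marker sum by partner was 539 CPM with N, 501 with T, 359 with E and with KPC1, 252 with M, 159 with H, 153 with K and 104 with V. Clone N, with the highest sum, also had the highest mean of Has2, Cd44, Tnfaip6 and Vcan, and T and KPC1 followed N in the level of Cd44. Clone V, with the lowest sum, had the second highest mean of Has2, and T, with the second highest sum, the lowest mean of Tnfaip6 among co-cultures. The part of epithelial RNA in these orders was not tested. In single libraries, clone V replicate 2 had 32.4 CPM of epithelial markers, 50.2 CPM of Has2 and 370 CPM of Cd44. Clone K replicate 2, with the lowest sum of any co-culture library at 20.5 CPM, had 23.3 CPM of Has2, 268 CPM of Cd44 and 13.5 CPM of Tnfaip6. Clone T replicate 1, with the highest sum at 804 CPM, had 32.2 CPM of Has2, 509 CPM of Cd44 and 6.12 CPM of Tnfaip6. All these values were above the mono-culture range of the same gene. With E, H, M, N, T and KPC1, the library with the highest epithelial sum also had the highest Cd44 of its group. Among these was KPC1 replicate 1 (590 CPM of epithelial markers, 600 of Cd44), on which the Cd44 call of KPC1 against the clones rested. With K the library with the highest sum, replicate 4 (305 CPM), had the lowest Cd44 (231), and with V it was not the highest. The part of epithelial RNA within groups was not tested.

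**Figure D2:**
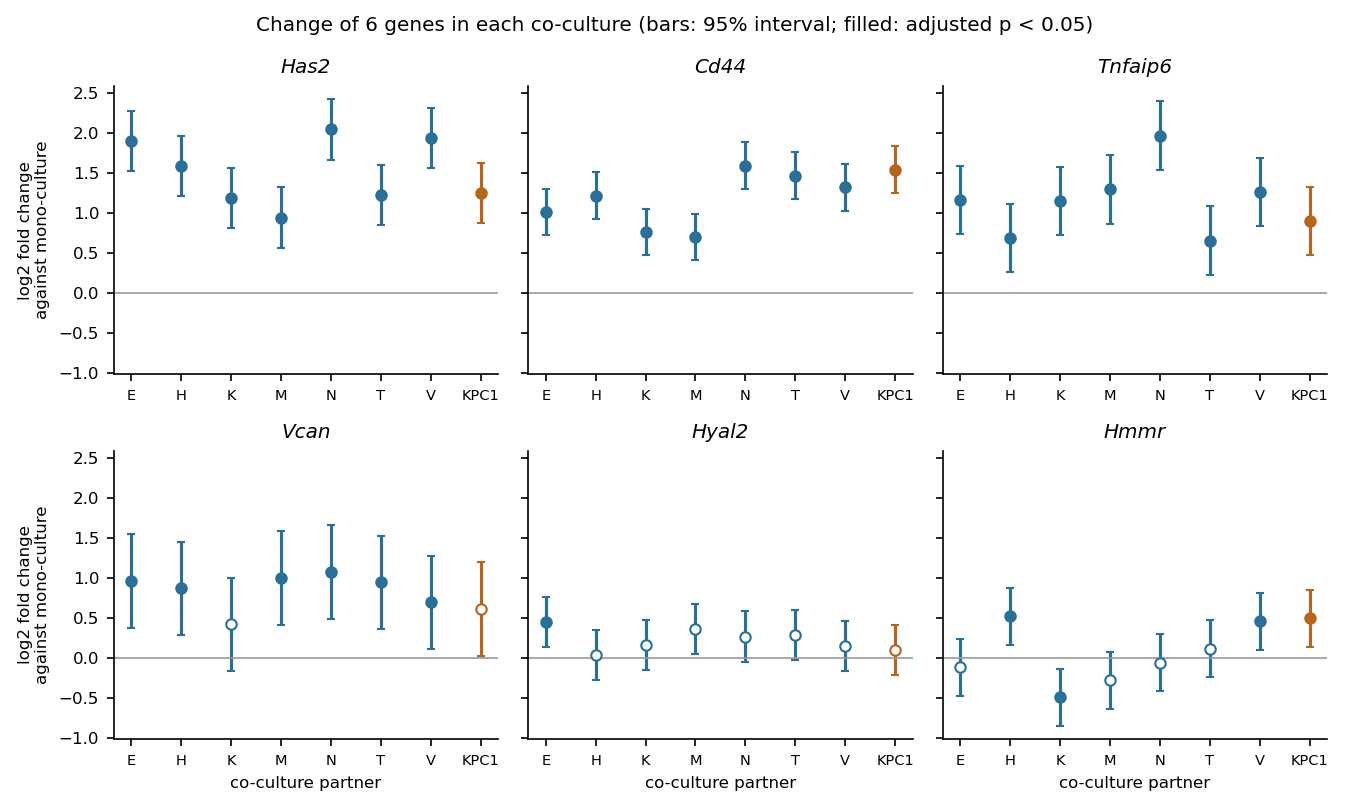
Log2 fold change against mono-culture of 6 genes in each co-culture, with 95% intervals from edgeR; filled points passed an adjusted p of 0.05, open points did not, clones are blue and KPC1 is brown. All 8 points are filled and above 0 for Has2, Cd44 and Tnfaip6, 6 of 8 are filled for Vcan, and Hmmr has filled points on both sides of 0.

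Hmmr (GRCm38 chr11:40701395-40733422, minus strand) encodes RHAMM, a hyaluronan-binding protein that also sits on the mitotic spindle. Its mono-culture levels were 71.1, 70.8, 64.6 and 81.7 CPM. With clone K they were 54.3, 53.8, 37.1 and 60.0 CPM, all below mono-culture, and with clone H 89.3, 117, 104 and 103 CPM, all above. The clone mean hid these opposite changes: its log2 difference was 0.02 (95% interval -0.25 to 0.29, adjusted p = 0.91), while the clones differed from each other (F-test adjusted p = 3.1e-05).

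Hmmr was higher with clone H (1.43-fold, adjusted p = 0.012), clone V (1.37-fold, 0.025) and KPC1 (1.41-fold, 0.016), and lower with clone K (log2 -0.49, 0.046). KPC1 libraries had 105, 79.5, 88.8 and 133 CPM and were 1.39-fold the clonal mean (log2 0.47, SE 0.126, adjusted p = 0.0035). The group means ran from 51.3 ± 9.86 CPM with K through 59.5 ± 5.55 with M, 66.5 ± 4.35 with E and 69.1 ± 23.7 with N to 72.0 ± 7.07 in mono-culture. Above it lay clone T with 78.2 ± 12.4, V with 98.9 ± 18.5, KPC1 with 101 ± 23.4 and H with 103 ± 11.3 CPM (SD, n = 4 each), and all neighbours in this order overlapped. Without KPC1 replicate 4 both KPC1 calls were lost, at log2 0.34 (0.096) against mono-culture and 0.32 (0.065) against the clones. The clone K call was lost in 23 of the 36 fits that left out 1 library (adjusted p 0.0503 to 0.203, the last without clone K replicate 3), and the clone V call in 5 of 36 (0.0505 to 0.0995, the last without clone V replicate 1). With scaling by library totals alone, the clone V and KPC1 differences missed the threshold, at adjusted p = 0.092 and 0.060, and with no filter on low counts that of clone K did, at 0.083. With limma-trend on RPKM values the clone V and KPC1 differences from mono-culture missed it too. Adjusted p was 0.11 and 0.073 with a pseudocount of 1, and 0.11 and 0.074 with 0.1. Fitted with mono-culture alone, the clone M difference passed (log2 -0.26, adjusted p = 0.037), in place of -0.28 and 0.27.

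The genes most like Hmmr over the 36 libraries were Aurkb (Pearson r of log2 CPM 0.97), Bub1 (0.95) and Ckap2l (0.95), all genes of mitosis, of which Aurkb and Bub1 are also on the list that follows. In this list of 19 other mitotic genes, 6 fell and none rose with clone K (median log2 -0.43), where 19.1% of all genes were called. With clone H 6 rose and 2 fell (median 0.17), where 54.2% of all genes were called, and with clone V 7 rose and 1 fell (0.18), where 58.3% were. With KPC1 5 rose and 1 fell (0.09), where 59% of all genes were called. The list's share called was thus below that of all genes with H, V and KPC1. Over the clone mean 2 of the 19 rose, 2 fell and 15 did not pass (median -0.15), against the all-gene shares given above.

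**Figure D3:**
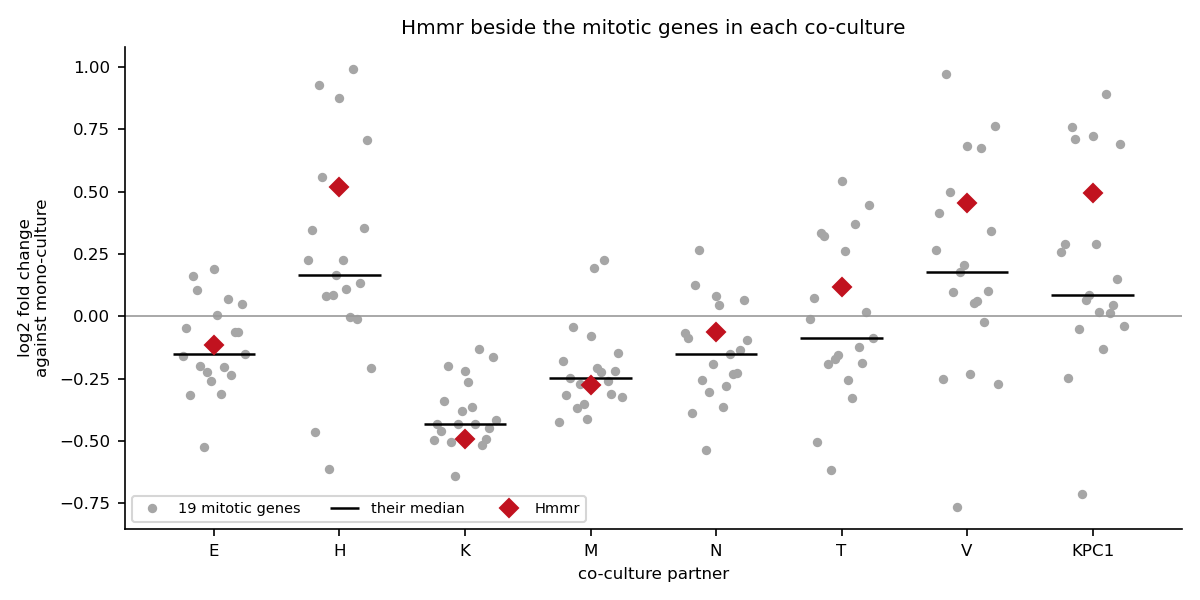
Log2 fold change against mono-culture of Hmmr (red diamonds) and of 19 other mitotic genes (grey points, with their median as a black line) in each co-culture. Hmmr lies at 0.52 for clone H and -0.49 for clone K, inside the spread of the mitotic genes of the same co-culture.

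Tnfaip6 (ENSMUSG00000053475, GRCm38 chr2:52038009-52056686, plus strand) encodes TSG-6, a secreted protein that binds hyaluronan and transfers heavy chains onto it. Mono-culture libraries had 5.17, 5.34, 4.49 and 4.53 CPM. Clone N libraries had 15.2, 22.3, 15.9 and 23.02 CPM, and clone T libraries, the lowest co-culture, 6.12, 9.84, 6.28 and 8.58 CPM. All 32 co-culture libraries were above the mono-culture range, and clone N stood above every library of clone M, its neighbour in the order.

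The mean clonal rise of Tnfaip6 was 2.25-fold (log2 1.17, SE 0.171, adjusted p = 1.5e-06), from 1.58-fold with clone T to 3.91-fold with clone N, and the clones differed (F-test adjusted p = 1.2e-05). Between these ends lay clone H at 7.84 ± 1.66 CPM, E at 10.9 ± 2.10, K at 10.9 ± 1.74 and V at 11.7 ± 3.47 CPM (SD, n = 4 each), with the 4 libraries of M between 10.8 and 13.2 CPM. Clone M, lowest of the co-cultures for Has2 and Cd44, was thus second highest for Tnfaip6. KPC1 was 1.87-fold above mono-culture (adjusted p = 0.00045) and -0.27 on the log2 scale from the clonal mean (95% interval -0.58 to 0.05, adjusted p = 0.17). The clone T call was lost without clone T replicate 2 (log2 0.52, adjusted p = 0.053).

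Vcan (GRCm38 chr13:89655312-89742509, minus strand) encodes versican, a large proteoglycan that binds hyaluronan through its amino-terminal domain. It was at 86.1, 76.2, 87.7 and 94.8 CPM in mono-culture and at 127, 232, 215 and 154 CPM with clone N, with no overlap. Clone V libraries ranged more widely, at 80.8, 215, 109 and 152 CPM, 1 of them inside the mono-culture range. Of the 32 co-culture libraries, 28 were above all mono-culture libraries.

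The mean clonal rise of Vcan was 1.80-fold (log2 0.85, SE 0.231, adjusted p = 0.0029). It was called with clones E (1.95-fold), H (1.83), M (2.00), N (2.11), T (1.92) and V (1.62), and missed with clone K (log2 0.42, adjusted p = 0.33) and KPC1 (0.61, 0.066). Clonal means lay between 115 ± 30.5 CPM with K and 182 ± 49.8 CPM with N (SD, n = 4), all neighbours overlapped, and the clones were not shown to differ (F-test adjusted p = 0.38). The clone H call was lost without clone H replicate 1 (log2 0.67, 0.063) and that of clone M without clone M replicate 3 (0.80, 0.063). The clone V call was lost without mono-culture replicate 1, 2 or 3 or clone V replicate 2 or 4 (adjusted p 0.053 to 0.23), and without clone V replicate 2 its log2 difference was 0.41. It was also lost with library totals alone (0.064) and with no filter (0.063). With limma-trend on RPKM values the clone V call was lost too, at adjusted p = 0.12 with a pseudocount of 1 and 0.11 with 0.1. KPC1 passed without its replicate 4 (0.76, 0.030), without clone V replicate 2 (0.62, 0.0496), with DESeq2 (0.60, 0.049) and when fitted with mono-culture alone (0.60, 0.0075).

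Counted by partner, 5 of 9 members were called with clone E, where 32% of all genes were called, and 6 with clone H (54.2%). Clone K had 4, of which 3 were higher and 1 lower (19.1%), and clone M had 4 (23%). Clone N had 5 (39%), clone T 4 (49.8%), clone V 5 (58.3%) and KPC1 4 (59%). The 4 genes of clone K and the 4 of clone M each made up 44.4% of the members, above the background of the same comparison. The shares with E (55.6%), N (55.6%) and H (66.7%) were also above their backgrounds. Those with T (44.4%), V (55.6%) and KPC1 (44.4%) lay below theirs. Among the 7 clones 5 members were called (Has1, Has2, Cd44, Hmmr and Tnfaip6), against 67.5% of all genes. Has1, which passed the filter mainly through N and H, is in this count and in those of N and H. Between KPC1 and the clonal mean 2 were called, Cd44 and Hmmr, against 41.1%.

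The nearest expression patterns of the other members were taken as the 3 highest Pearson r of log2 CPM over the 36 libraries among 11694 genes. Has2 was nearest to Ppme1, Inhbb and Errfi1 (r 0.88, 0.88 and 0.86), and Cd44 to Jak2, Agpat4 and Klf13 (0.95, 0.94 and 0.94). Vcan was nearest to Col6a1, Tmem2 and Fam171a1 (0.85, 0.83 and 0.82), and Tnfaip6 to Dram1, Pkdcc and Mark1 (0.81, 0.81 and 0.80). Hyal2 had lower values, with Wbp1, Trappc1 and Casp6 (0.75, 0.74 and 0.71), as did Hyal1, with Pam, Ephb4 and Trappc9 (0.64, 0.58 and 0.56). The libraries share groups and depth, so these values are descriptions.

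The enzymes that supply the synthases with UDP-glucuronate and UDP-N-acetylglucosamine were followed as a list of 7, all tested. Over the clone mean 3 rose and 2 fell, with a median log2 of 0.15. In that comparison 49.2% of all genes were called, 24.3% higher and 24.9% lower. The same shares stand beside the counts of the lists that follow. Gfpt2, which commits fructose 6-phosphate to the hexosamine pathway, went from 16.5 ± 0.663 CPM (SD, n = 4) to 28.95 ± 13.3 CPM (SD, n = 28; log2 0.69, adjusted p = 0.00056), and to 56.8 ± 13.5 CPM with KPC1. By partner, it was called with H (log2 1.40), V (1.38), T (1.22), N (0.64) and KPC1 (1.78), and was at 0.32 with E, -0.05 with K and -0.11 with M, which did not pass. Gnpnat1 (log2 0.56, adjusted p = 0.026) and Uap1 (0.27, 0.00097), later steps of the same pathway, rose over the clone mean, and Pgm3 (-0.28, 0.035), between them, fell. Gnpnat1 was called singly with H (1.26), T (1.02), V (1.61) and KPC1 (1.75). Ugp2, which makes UDP-glucose, fell (-0.23, 0.0051). Ugdh, which oxidises it to UDP-glucuronate, was at 0.15 (0.10) and Gfpt1 at -0.14 (0.086).

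Of 9 other genes of hyaluronan breakdown, 4 could be tested, and over the clone mean 1 rose and 2 fell (median log2 -0.58). The share of all genes called there was 49.2%. Hexa, a subunit of lysosomal beta-hexosaminidase, fell from 321 ± 44.0 CPM (SD, n = 4) to 152 ± 30.3 CPM (SD, n = 28; log2 -1.10, adjusted p = 1.3e-10), and was lower in each of the 8 co-cultures. Gusb, the lysosomal beta-glucuronidase, fell as well (-0.43, 4.6e-06). Cemip2, listed as Tmem2 in the files and encoding a surface protein described as a hyaluronidase, rose (0.63, 0.0045), and Cemip, encoding a hyaluronan-depolymerising protein, was at -0.73 (0.086) over the clones. Cemip, averaging 2.78 CPM, was called lower with H (-1.52), T (-1.68), V (-1.82) and KPC1 (-2.46), while with N it was at 1.13 (adjusted p = 0.058). Hyal3 had at most 18 counts in a library, Hyal4 and Hyal5 at most 1, Hyal6 at most 5, and Spam1 none.

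Of 6 other receptors 5 were tested, and 3 fell and none rose over the clone mean (median log2 -0.54). Among all genes 24.9% were called lower and 24.3% higher. Tlr4 fell from 47.1 ± 5.90 CPM (SD, n = 4) to 31.8 ± 4.05 CPM (SD, n = 28; log2 -0.57, adjusted p = 8.5e-07), and Tlr2 by a like amount (-0.54, 2.8e-05). Both are innate immune receptors reported to sense hyaluronan fragments. Lyve1, the receptor of lymphatic vessels, had at most 1 count in any library.

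Of 16 other binding and linking proteins 6 were tested, and 2 rose and 1 fell over the clone mean (median log2 0.60). Of all genes, 49.2% were called there. Acan is 1 of the 2 that rose, and its call is limited as follows. Acan, which encodes aggrecan, had 3 counts in all 4 mono-culture libraries together. It had 0.10 to 7.81 CPM in the 28 clonal libraries and 8.89 ± 7.97 CPM (SD, n = 4) with KPC1. Acan thus passed the filter on low counts through co-cultures alone, so its call lends no support. Neither fold nor p-value is given here against so few counts. Itih2, an inter-alpha-trypsin inhibitor heavy chain of the kind that TSG-6 transfers, went from 1.64 ± 0.598 to 4.80 ± 5.05 CPM (log2 0.87, adjusted p = 0.012), with 12 of the 28 clonal libraries above and 5 below all mono-culture libraries and a clonal median of 1.79 CPM. It was called with N (log2 2.89), T (2.74), E (1.45) and KPC1 (1.91), while H, K, M and V, at -0.44 to -0.12, did not pass. Habp4, a hyaluronan-binding intracellular protein, fell (-0.21, 0.016).

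All 11 genes of the CD44 partner list were tested, and 4 rose and 5 fell over the clone mean (median log2 -0.10). Among all genes 24.3% were called higher and 24.9% lower. Spp1, encoding osteopontin, a secreted CD44 ligand, went from 196 ± 32.3 CPM (SD, n = 4) to 1313 ± 841 CPM (SD, n = 28; log2 2.42, adjusted p = 7.0e-07), and 25 of the 28 were above all mono-culture libraries. Ezr, encoding ezrin, which links CD44 to actin and is abundant in epithelial cells, went from 15.8 ± 1.16 to 87.0 ± 50.9 CPM (log2 2.28, adjusted p = 2.9e-05), beside the rise of the epithelial marker sum. Msn, encoding moesin, its relative of mesenchymal cells, rose (0.63, 1.1e-05), and Rdx, encoding radixin, the third of the family, fell (-0.24, 0.0015). Iqgap1, a scaffold protein that binds CD44, rose (0.55, 3.1e-05). Mmp14, a membrane protease that sheds CD44, fell (-0.97, 3.7e-10), as did the sheddase Adam10 (-0.18, 0.0495).

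Of 6 versican-cleaving ADAMTS proteases 4 were tested, and 1 rose and 2 fell over the clone mean (median log2 -0.86). The share of all genes called was 49.2%. Adamts1 fell from 635 ± 99.8 to 216 ± 104 CPM (log2 -1.65, adjusted p = 7.6e-08) and Adamts5 from 842 ± 96.7 to 290 ± 121 CPM (-1.62, 7.5e-09). With KPC1 they were at 110 ± 23.7 and 111 ± 32.5 CPM (SD, n = 4). Adamts4 rose (0.57, 0.00071).

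**Figure D4:**
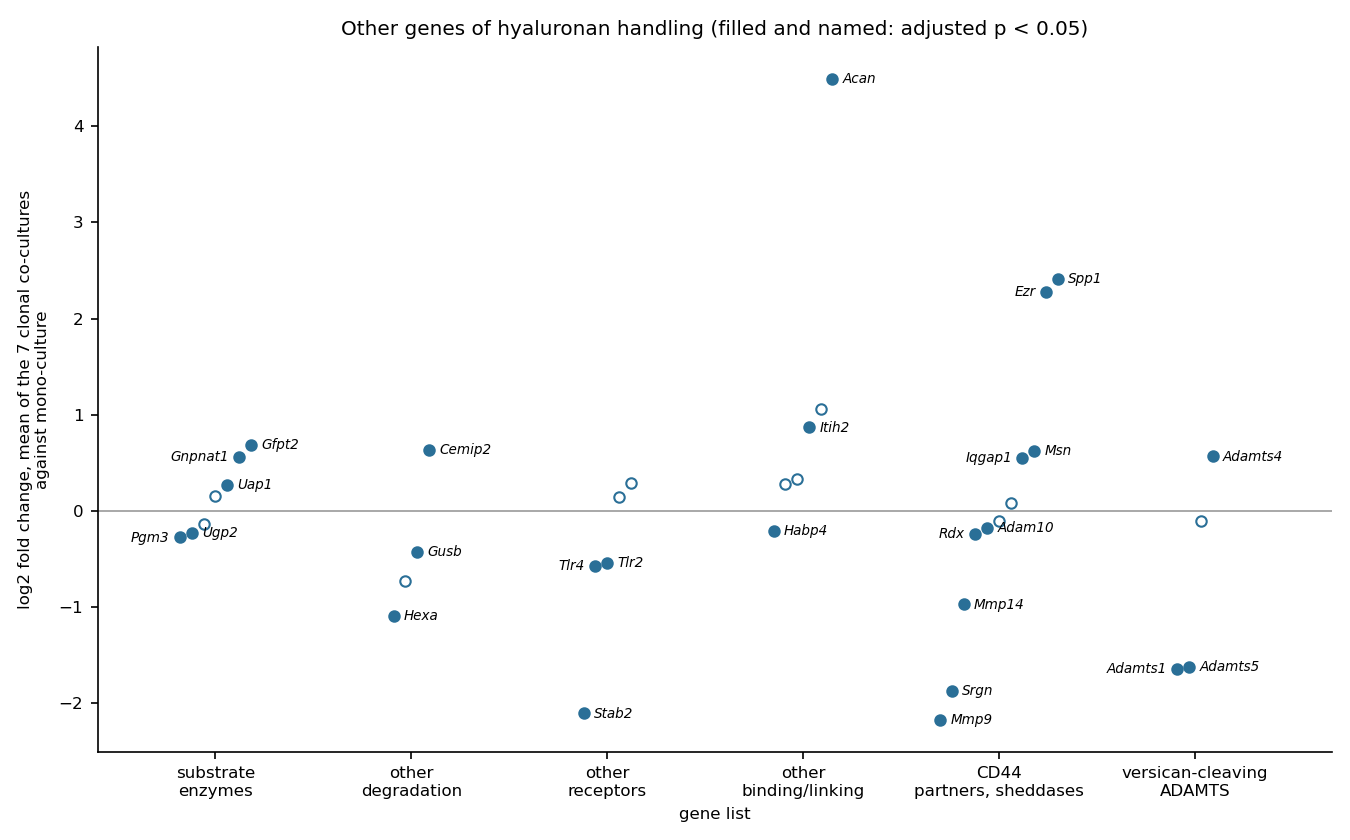
Log2 fold change, mean of the 7 clonal co-cultures against mono-culture, of the tested genes of 6 lists; filled and named points passed an adjusted p of 0.05. Acan (4.49, a fitted value against 3 counts), Spp1 (2.42) and Ezr (2.28) lie highest. Acan passed the filter on low counts through co-cultures alone, so its filled point lends no support. Stab2, Srgn and Mmp9 averaged under 2 CPM over all libraries.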

How the data were processed

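Per the labels, RNA was polyadenylated, 200 ng was used with 14 cycles of amplification, and libraries were strand specific and read as 76 bp paired ends. The deposited tables hold raw gene counts as whole numbers and RPKM values made by the authors; the submitters' processing notes name STAR, featureCounts, edgeR and mm10, with no versions. Strand setting and annotation are not given in the sources used here.

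Counts were tested with edgeR 4.0.16 in R 4.3.3 (filterByExpr for low counts, TMM, robust quasi-likelihood with 1 coefficient per culture, 36 libraries) and Benjamini-Hochberg adjustment over 14439 genes. Log2 CPM used a prior count of 1. SE and 95% intervals came from the fold change and its F-statistic. Positions are from GENCODE M21. Alternatives were DESeq2 1.42.0, RLE scaling, library totals alone, other filters, a replicate block, limma-trend 3.58.1 on log2(RPKM + 1) or log2(RPKM + 0.1), each library left out, 2 groups alone and a threshold of 0.1. The code was also run on simulated counts in which genes differed in clone E alone and replicates shared no effect. That setting is simpler than these data, so the run does not bear on their scaling or spread. No 2 libraries of a group agreed within counting noise (smallest chi-square per degree of freedom 5.53). The members and lists were chosen with earlier results of these data known. Named list genes had at least 2 CPM on average and were the 3 highest and 3 lowest called per list, plus all substrate enzymes and the 3 nearest patterns per member. Iqgap1, Cemip and the breakdown and receptor genes given by their highest count alone were named after their values were seen. One result of a list is not reported here.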

Additional observations from a re-analysis of the deposited data

Results flagged for a closer look

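Of 81 sets of 4 libraries (9 genes in 9 cultures) 6 had 1 library apart from the other 3 by a gap ratio beyond Dixon's 95% limit, where chance gives about 4.05. Has1 stood out in clone E replicate 4 (gap ratio 0.935, 0.26 CPM against 0.05 to 0.06). Has3 stood out in clone E replicate 4 (0.946, 3.19 CPM against 0.34 to 0.49), in clone M replicate 4 (0.873, 3.58 against 0.40 to 0.81) and in KPC1 replicate 4 (0.902, 1.25 against 0 to 0.12). Hyal2 stood out in clone V replicate 4 (0.852, 34.5 CPM against 19.02 to 21.3), and Tnfaip6 in clone K replicate 2 (0.963, 13.5 CPM against 9.99 to 10.1).

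Effects differed between clonal partners, by an F-test over the 7 clonal co-cultures, for Has1 (adjusted p = 0.0021), Has2 (3.4e-06), Cd44 (3.7e-06), Hmmr (3.1e-05) and Tnfaip6 (1.2e-05). The Has1 result has the limit that it passed the filter on low counts mainly through N and H. KPC1 differed from the clonal mean for Cd44 (adjusted p = 0.0030) and Hmmr (0.0035).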

How the results depend on the processing

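Over the clone mean Vcan kept its call under every alternative run. Has2, Cd44 and Tnfaip6 stayed higher and past the threshold there and in each co-culture under every alternative run, except Tnfaip6 with clone T without clone T replicate 2 (0.52 on the log2 scale, adjusted p = 0.053). Of 4005 recomputed log2 fold changes, 3873 kept direction and call, 63 lost the call, 15 gained it and 54 changed sign, all of these last uncalled in both fits. With clone V, 3 members were called in place of 5 with library totals alone and with limma-trend on RPKM values (pseudocount 1 or 0.1), and 3 to 5 when 1 library was left out. Between KPC1 and the clones 1 to 2 were called on leaving out 1 library. Replicate numbers did not pair mono-culture with the co-cultures. Same-numbered deviations correlated over 0.1 in 5 of 32 such pairs, and 0 of 4 mono-culture libraries were closest to their own number. Between co-cultures 63 of 112 pairs did so (median r 0.14), and 24 of 32 co-culture libraries were closest to their own number. Replicate number thus went with part of the spread among co-cultures, and the main fit had no term for it. With a replicate block 10779 genes in place of 9749 were called among clones, Has3 with clone M was -0.23, and Tnfaip6 between KPC1 and the clones (-0.27) passed (adjusted p = 0.029). Has1 and Has3 could not be tested with at least 10 counts in every library, and with at most 15 and 54 counts in a library their precision is limited by depth. The causes of these changes were not tested.

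Differences near 0 changed sign with a setting. With library totals alone, Hyal1 with clone K was -0.012, Hyal2 with clone H -0.051 and Hmmr in the clone mean -0.042. With at least 10 counts in every library, Hyal2 with clone H was -0.0047 and Hmmr in the clone mean -0.00028. With limma-trend on log2(RPKM + 1), Hyal1 with clone K was -0.0038, Hyal2 with clone H -0.057 and with KPC1 -0.012, and Hmmr in the clone mean -0.050. With a pseudocount of 0.1 these were -0.0053, -0.063, -0.015 and -0.054, Has1 with clone T was -0.11 and Has3 with clone M -0.060.

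Leaving out 1 library moved log2 differences across 0 as follows. Has1 ranged from -0.90 to 0.17 with clone M, -1.36 to 0.61 with clone T and -0.96 to 0.049 with KPC1. Has3 ranged from -1.76 to 0.48 with clone E, -0.88 to 0.36 with K, -1.07 to 0.80 with M, -1.11 to 0.22 with N, -1.33 to 0.043 with T, -0.90 to 0.19 with V and -0.94 to 0.14 in the clone mean. Hyal1 ranged from -0.16 to 0.083 with clone E, -0.19 to 0.046 with H, -0.027 to 0.13 with K, -0.0020 to 0.20 with M, -0.16 to 0.048 with V and -0.051 to 0.16 between KPC1 and the clones. Hyal2 ranged from -0.036 to 0.090 with clone H, -0.076 to 0.25 with V and -0.23 to 0.0042 between KPC1 and the clones. Hmmr ranged from -0.32 to 0.050 with clone N and -0.013 to 0.086 in the clone mean.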
